A study of Mus musculus with 12 samples.

Results

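The genes described here are 10 genes of iron and heme handling, chosen by name and function from the 56735 gene names of a bulk RNA-seq count table of mouse brain macrophages. Earlier results of these data were known when they were chosen. They are Hmox1, Blvra and Blvrb (heme breakdown), Slc48a1 and Slc11a1 (release of heme and iron from lysosomes and phagosomes), Slc40a1 (iron export), Fth1 and Ftl1 (iron storage), and Trf and Tfrc (transferrin and its receptor). All 10 passed the filter on low counts. Macrophages of brain and body take up dying red blood cells and hemoglobin, break the heme down to iron, biliverdin and carbon monoxide, and then either store the iron in ferritin or release it through ferroportin, the product of Slc40a1. Iron regulatory proteins tie several of these steps to the iron content of the cell, because they bind a short hairpin, the iron-responsive element, in the untranslated regions of the mRNAs. In a 5′ untranslated region a bound hairpin blocks translation, and in the 3′ region of the transferrin receptor mRNA it protects the mRNA from decay.

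The libraries came from CNS-associated macrophages (CAMs) of brain without choroid plexuses, sorted as CD206+ cells 8 weeks after oral treatment. All mice had the genotype Mrc1CreERT2/CreERT2:R26tdT/tdT and received tamoxifen, so cells that expressed Mrc1 (CD206) at that time, and their progeny, carry the tdTomato reporter (tdT). The 3 groups of 4 libraries were tdT+ cells of vehicle mice, tdT+ cells of mice given BLZ945 (an inhibitor of the CSF-1 receptor) at 200 mg/kg for 7 days, and tdT− cells of the BLZ945 mice. Libraries carry the mouse labels F1, F2, M1 and M2, and the BLZ945 tdT+ and tdT− libraries of a label come from the same mouse, while the vehicle mice are other animals. Because the reporter depends on Mrc1 expression at tamoxifen, a tdT− cell may have arrived later or may not have recombined. The library names of the vehicle mice also carry the word "pre" and the others "Post", so treatment and whatever these words mark cannot be told apart. The table has an entry for tdTomato, but it held 0 counts in every library and could not check the reporter labels.

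Library totals lay between 19969308 and 23395058 counts. The sum of 8 border macrophage markers lay between 303511 and 348123 normalised counts (counts divided by the DESeq2 size factor of the library) in vehicle tdT+, between 335212 and 378130 in BLZ945 tdT+ and between 186328 and 247190 in BLZ945 tdT− libraries, with no marker at 0. The sum of 6 microglia markers lay between 46907 and 76085, between 80456 and 104635 and between 212439 and 457232, respectively, so the tdT− group held the highest values and did not overlap the others. In the same order, sums of 5 monocyte markers lay between 1549 and 3885, between 847 and 1981, and between 3076 and 50749. Those of 4 astrocyte markers lay between 239 and 683, between 297 and 1298, and between 1227 and 2594. Both reached their highest values in the tdT− group, but the monocyte range overlapped vehicle tdT+ and the astrocyte range BLZ945 tdT+. In tdT− F1, F2, M1 and M2, Csf1r alone held 143530, 120576, 153618 and 146627 normalised counts of the border macrophage sum. Cd163 lay between 5429 and 6847 in tdT− and between 37376 and 51519 in BLZ945 tdT+ libraries. Mrc1 lay between 2232 and 3882 and between 8003 and 12341. Only Aif1 went the other way, between 13687 and 21915 against 11272.5 and 14886, with overlap. In the same tdT− libraries Ccr2 alone held 6288, 12013, 5226 and 3076 normalised counts of the monocyte sum. Chil3 held 32358 in F2 and 0 in F1, M1 and M2. Slc1a3 alone held 950, 1656, 2234 and 2084 of the astrocyte sum, and Gfap and Aqp4 were both 0 in M1. One library stood apart, BLZ945 tdT− F2, with 405531 normalised counts over 8 neutrophil markers against at most 72.8 in the other 11 and with the highest sum of 7 red blood cell markers, 37154 against at most 16049. Differences of the tdT− group that passed the test are therefore also given without this library. In bulk samples, fewer cells of a type and less RNA per cell cannot be told apart.

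Of the 10 genes, 4 hold a match to the hairpin in the reference transcripts (GENCODE M21). They are shown because they are the storage, export and uptake genes whose values follow. The search took the loop letters CAGTGN, with N other than G, on the transcript strand, an unpaired C 6 bases before the loop, 5 paired bases above it and at least 3 of 5 below. Only 32 of 21877 coding genes searched (0.146%) matched, and of 95 iron and heme genes searched 5 did, the fifth being Alas2, which starts heme synthesis in red cell precursors. Hairpins that depart from this pattern are missed, so the genes counted and the elements shown for Tfrc are only those that match. The lines below give 27 bases each, 5′ to 3′, with the loop in capitals.
Fth1, 5′ untranslated region: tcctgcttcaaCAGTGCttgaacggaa
Ftl1, 5′ untranslated region: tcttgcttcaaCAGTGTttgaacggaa
Slc40a1, 5′ untranslated region: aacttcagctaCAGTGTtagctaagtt
Tfrc, 3′ untranslated region, first of 4: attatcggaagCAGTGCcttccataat
Tfrc, the second: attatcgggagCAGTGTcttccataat
Tfrc, the third: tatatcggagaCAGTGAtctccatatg
Tfrc, the fourth: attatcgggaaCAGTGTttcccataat

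Counted per merged exon length (TPM, computed from the counts and scaled to the same total in each library), the 10 genes spanned from near the top of the transcriptome to low levels. Merged exons can exceed a transcript. They had 3469 bases for Fth1, 1340 for Ftl1 and 9000 for Slc40a1, against 1494, 968 and 3370 in the longest transcript with the hairpin. The order between genes therefore depends on the length used. In normalised counts Fth1 (vehicle mean 210595) was above Ftl1 (119362). In vehicle tdT+ libraries Ftl1, the ferritin light chain, had 11716 ± 1128 TPM (SD, n = 4) and ranked between 8 and 11 of all genes, and Fth1, the ferroxidase heavy chain, had 7984 ± 353 TPM and ranked 15 in each library. Trf, which encodes the iron carrier transferrin, followed at 4970 ± 359 TPM. Then came a group of close levels, in the order Blvrb (299.8 ± 7.80 TPM), Slc40a1 (283.6 ± 24.4), Hmox1 (270.0 ± 41.4) and Slc11a1 (225.8 ± 34.3), whose neighbours overlapped, and below them Blvra (168.2 ± 12.2) and Slc48a1 (135.1 ± 18.6), which overlapped as well. Tfrc, the receptor for uptake of transferrin, was lowest at 7.25 ± 4.78 TPM. The order of the first 3 and the last place held in each of the 12 libraries, but Slc40a1 moved from the fifth place in vehicle tdT+ to the eighth in BLZ945 tdT− cells (90.9 ± 32.2 TPM), where its range overlapped those of Blvra and Slc48a1.

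**Figure D1:**
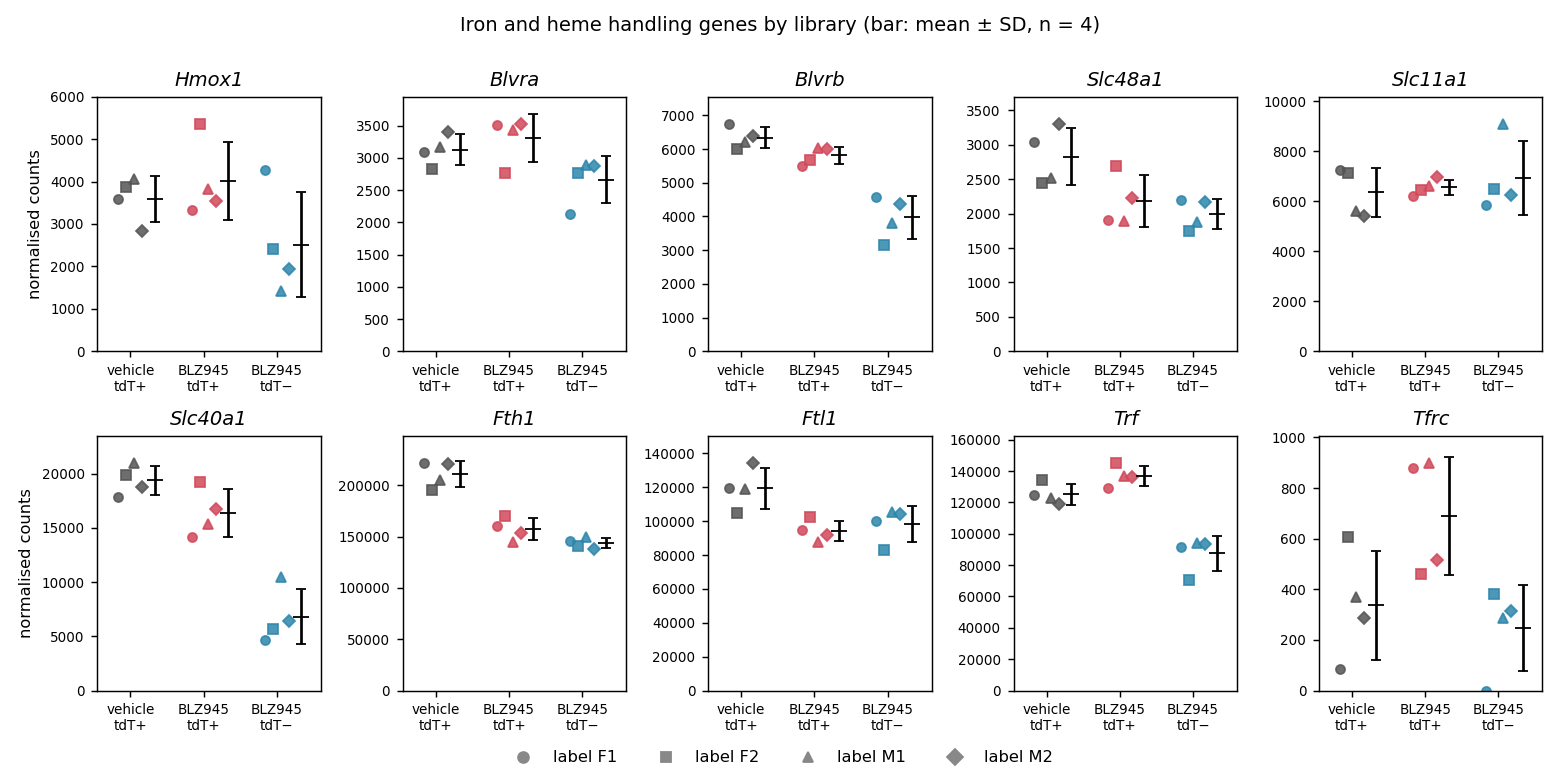
Normalised counts (vertical axis, from 0) of the 10 genes in the 12 libraries, 1 panel per gene, with the 3 groups on the horizontal axis. Symbols mark the mouse labels, which in the vehicle group are other animals than in the BLZ945 groups, and bars give mean ± SD of 4 libraries. The 4 tdT− libraries lie below all others for Slc40a1, Trf and Blvrb, and the vehicle libraries lie above all others for Fth1.

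The first question was how tdT− and tdT+ cells of the same BLZ945-treated brains differed. In tdT− cells 3 of the 10 genes were lower and none higher at an adjusted p of at most 0.05 (DESeq2), namely the iron exporter Slc40a1, Trf and Blvrb. Of all 13369 genes tested, 3.61% were called lower and 6.54% in either direction. The median log2 fold change before shrinkage was −0.43 over the 10 genes and 0.00355 over all genes. The libraries of both groups did not overlap for 4 of the 10 genes, against 9.35% of the 13724 genes kept. The 10 genes were chosen with earlier results of these data known. Here and in the comparisons below, their counts and medians beside those of all genes are therefore a description and not a test.

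Slc40a1 encodes ferroportin, the only known iron exporter of mammalian cells (chr1:45947228-45965683, minus strand, GRCm39). Vehicle tdT+ libraries held 17860.1, 19886, 20969.8 and 18798 normalised counts and BLZ945 tdT+ libraries 14161, 19245, 15349 and 16789.7 (order F1, F2, M1, M2 here and below). The tdT− libraries held 4657, 5721, 10471 and 6444. Each tdT− library was below every tdT+ library, and M1 was the highest of the 4. The mean of tdT− cells was 58.4% below that of BLZ945 tdT+ cells (log2 fold change −1.21 ± 0.20 SE, adjusted p = 1.05e-08 with DESeq2, 0.00323 with edgeR, 5.31e-07 without tdT− F2). It was the only one of the 10 genes that also passed a log2 fold change of 1 in size, which 1.09% of all genes did on the lower side. Within mice the log2 difference ranged from −1.75 in F2 to −0.55 in M1. Between the same groups the microglia, monocyte and border macrophage marker sums given above did not overlap, while the astrocyte sums overlapped. The part of these cell types in this result and in those for Trf and Blvrb was not tested.

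Trf makes transferrin, which carries ferric iron in blood and cerebrospinal fluid and which oligodendrocytes produce in brain (chr9:103081200-103107643). BLZ945 tdT+ libraries held 129013, 145041, 136689 and 136232 normalised counts, and tdT− libraries 91528, 70671, 94170.4 and 93461. All 4 tdT− values lay below all tdT+ values, and F2 was the lowest. The difference was −0.63 ± 0.09 (adjusted p = 2.32e-10, edgeR 0.00167), or 36.0% lower. Without tdT− F2 it was −0.55 (adjusted p = 1.17e-18), and the 4 mice gave between −1.04 and −0.50. The sum of 6 oligodendrocyte markers lay between 1781 and 3737 normalised counts in vehicle tdT+, between 2724 and 9302 in BLZ945 tdT+ and between 2122 and 4039 in tdT− libraries. In the same order, sums of 5 choroid plexus epithelium markers lay between 6.31 and 3410, between 115 and 3842, and between 0 and 707. Both sets of ranges overlapped between groups, and the part of such RNA in the Trf values was not tested.

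Blvrb reduces biliverdin and flavins (chr7:27147403-27165569). Its libraries held 5513, 5690.2, 6023 and 6017 normalised counts in BLZ945 tdT+ and 4592, 3156, 3795 and 4363 in tdT− cells. The groups did not overlap, and tdT− F2 was again the lowest. The difference was −0.51 ± 0.12 (adjusted p = 0.000331, edgeR 0.0183) and −0.43 without tdT− F2 (adjusted p = 0.000169). Blvra, the main biliverdin reductase, was 19.5% lower in the mean without passing the test (−0.27 ± 0.14, adjusted p = 0.217), and its groups overlapped, with 2758 to 3528 normalised counts in tdT+ and 2136 to 2888 in tdT− libraries.

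Hmox1, the inducible heme oxygenase that opens the heme ring, did not pass the test (chr8:75820249-75827217). BLZ945 tdT+ libraries held 3328, 5359, 3826 and 3550.1 normalised counts, and tdT− libraries 4275, 2412, 1427 and 1948. In F2, M1 and M2 the tdT− cells held less than the tdT+ cells of the same mouse, with log2 differences between −1.42 and −0.87, while in F1 they held more (0.36). The spread within the tdT− group was wide, with a highest value 2.996 times the lowest. The fitted difference was −0.48 ± 0.29 (adjusted p = 0.157, edgeR 0.261, 0.229 without tdT− F2). Without tdT− F1 it was −0.96 and passed (adjusted p = 0.00012), so this single library decided the call. The red blood cell marker sums of the tdT− libraries were 100.1, 37154, 8.44 and 56.4. The 2 with the most Hmox1 had the 2 highest sums. In BLZ945 tdT+ libraries the sums were 14845, 16049, 1106 and 417, with the most Hmox1 in F2 and the least in F1. In vehicle tdT+ libraries they were 54.1, 8778, 158 and 6348, with 3590, 3870, 4056 and 2846 normalised counts of Hmox1. Hmox1 and the sums did not have the same order in any group, and the part of such RNA was not tested.

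**Figure D2:**
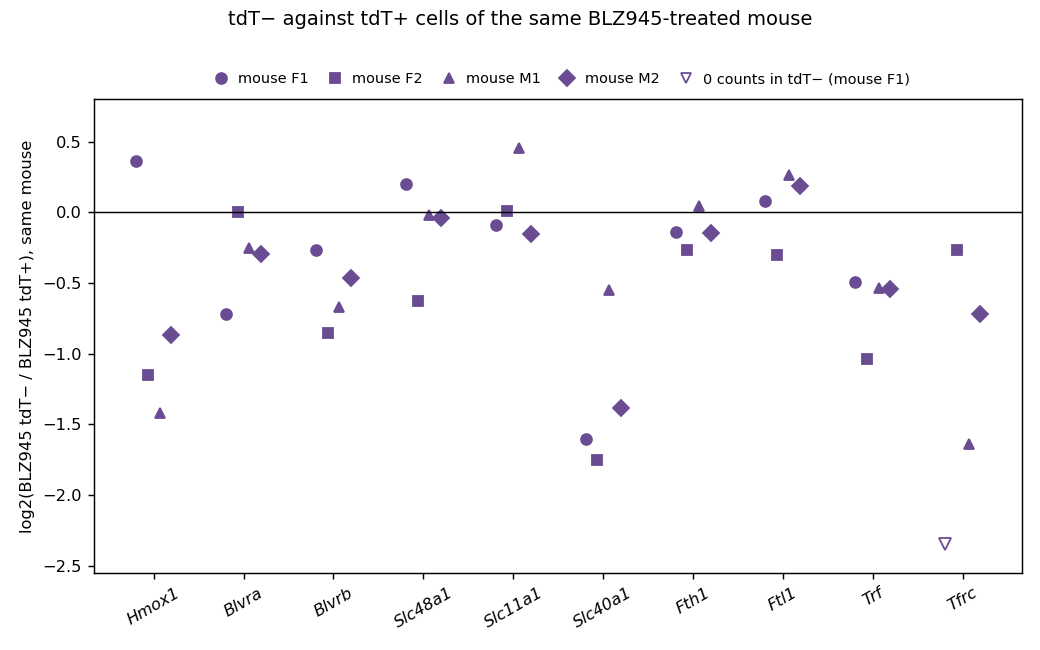
Log2 ratio of normalised counts in tdT− to tdT+ cells of the same BLZ945-treated mouse (vertical axis) for the 10 genes (horizontal axis), with a symbol per mouse. The open triangle at the lower edge marks Tfrc in F1, where tdT− cells had 0 counts and no ratio exists. Slc40a1, Tfrc, Trf and Blvrb lie below 0 in 4 of 4 mice, and Hmox1 in 3 of 4.

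Tfrc was low and uneven (chr16:32427738-32451612). BLZ945 tdT+ libraries held 879.7, 459.9, 898 and 517 normalised counts and tdT− libraries 0, 383, 288 and 314, where a count of 0 allows up to 3 counts in that library. The groups did not overlap, and tdT− cells were lower in 4 of 4 mice. The spread of the low values was such that the test did not pass (log2 fold change before shrinkage −1.48, 95% interval from −3.29 to 0.33, adjusted p = 0.482). Vehicle tdT+ libraries held 86.2, 607, 369 and 285 and overlapped both other groups.

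Ferritin did not differ detectably between tdT− and tdT+ cells of BLZ945 mice. The interval of the difference before shrinkage ran from −0.26 to 0.000401 for Fth1 (adjusted p = 0.312) and from −0.13 to 0.25 for Ftl1 (adjusted p = 0.896). Slc48a1, which brings heme out of the lysosome, gave −0.47 to 0.21 (adjusted p = 0.864), and Slc11a1 (NRAMP1), which pumps iron and manganese out of the phagosome, gave −0.22 to 0.38 (adjusted p = 0.927), with 6221 to 6959 normalised counts in tdT+ and 5836 to 9100.0 in tdT− libraries. For these 4 genes a change by a factor of 2 in either direction lay outside the interval.

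The second question was what differed between tdT+ cells 8 weeks after BLZ945 and tdT+ cells of vehicle mice. The 2 ferritin chains were lower, and no other gene of the 10 passed. Over all 13633 genes tested 0.477% were called lower and 0.961% in either direction, and the libraries did not overlap for 2 of the 10 genes, again Fth1 and Ftl1, against 6.72% of all genes kept. The median log2 fold change before shrinkage was −0.04 over the 10 genes and 0.03 over all.

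Fth1 (chr19:9957962-9962462) held 221452, 195311, 205164 and 220452 normalised counts in vehicle tdT+ libraries. BLZ945 tdT+ libraries held 160332, 170259, 145063 and 153149, and tdT− libraries 145732, 141255, 149538 and 138239. The vehicle libraries stood above all 8 others. The mean was 25.4% lower in BLZ945 tdT+ cells (−0.40 ± 0.07, adjusted p = 1.73e-07, edgeR 0.0427). Over all genes DESeq2 called 131 in this comparison and edgeR 9, and Fth1 was called by both.

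Ftl1 (chr7:45107368-45109308, minus strand) held 119600, 104623, 118964 and 134262 normalised counts in vehicle tdT+ and 94752, 102276, 87858 and 91879 in BLZ945 tdT+ libraries. The highest BLZ945 value lay just under the lowest vehicle value. The difference of −0.30 ± 0.10 passed narrowly (adjusted p = 0.0411) and not with edgeR (0.341). It also missed the threshold when any of vehicle F1, M1 or M2, BLZ945 tdT+ F1, M1 or M2 or tdT− F1 was left out.

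The ratio of Fth1 to Ftl1 in TPM was 0.684 ± 0.0414 in vehicle tdT+, 0.645 ± 0.00661 in BLZ945 tdT+ and 0.570 ± 0.0628 in tdT− libraries (SD, n = 4). The ranges overlapped (0.634 to 0.721, 0.638 to 0.654 and 0.511 to 0.659), and the ratio was not tested between groups. The level of the ratio depends on the merged exon lengths, which are the same in all groups. Fth1 made up 1.04% ± 0.0664 of all counts in vehicle tdT+, 0.755% ± 0.0451 in BLZ945 tdT+ and 0.674% ± 0.0254 in tdT− libraries. The share of mitochondrially encoded counts moved in the same order, 0.907% ± 0.177, 0.562% ± 0.0335 and 0.446% ± 0.133, and the microglia marker sum did not overlap between vehicle tdT+ (46907 to 76085) and BLZ945 tdT+ libraries (80456 to 104635). The part of either in the ferritin result was not tested. Of processed copies of ferritin genes, 6 annotated pseudogenes held together less than 1% of the counts of their parent genes. Reads matching both places were dropped by the authors, so these counts cannot show how many ferritin reads were lost.

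The other 8 genes gave no call between the 2 tdT+ groups. Slc40a1 was 15.4% lower in the mean (interval before shrinkage −0.62 to 0.14, adjusted p = 0.962), and Slc48a1, which held 3041, 2444, 2523 and 3304 normalised counts in vehicle and 1909, 2696, 1896 and 2229.7 in BLZ945 tdT+ libraries, was 22.8% lower (adjusted p = 0.490). Trf was higher by 0.13 before shrinkage with an interval from −0.05 to 0.30 (adjusted p = 0.910). Hmox1 and Tfrc had wide intervals, from −0.39 to 0.72 and from −0.78 to 2.84.

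**Figure D3:**
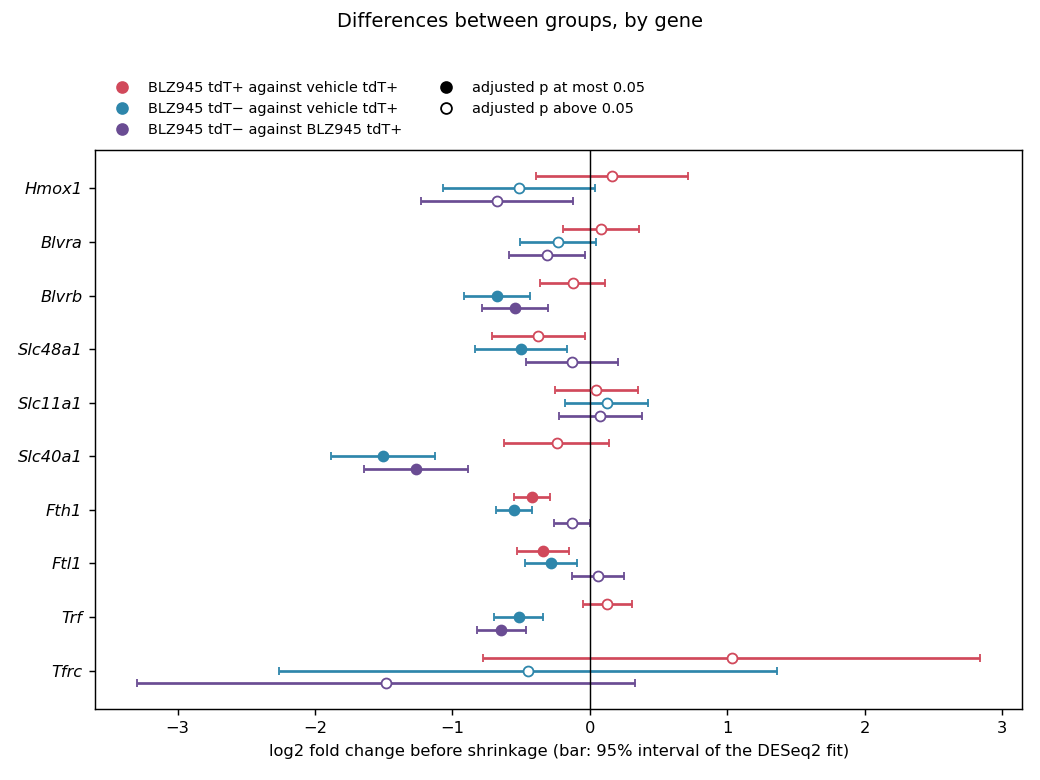
Log2 fold change before shrinkage (horizontal axis) of the 10 genes (vertical axis) in the 3 comparisons, with bars for the 95% interval of the DESeq2 fit. Filled points passed an adjusted p of 0.05. Fth1 and Ftl1 are filled in both comparisons with vehicle, and Slc40a1, Trf and Blvrb in both comparisons of tdT− cells.

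The third comparison set tdT− cells of BLZ945 mice against tdT+ cells of vehicle mice, so cell label and treatment differ together. It shares its libraries with the other 2 comparisons, and the values are not independent of them. Here 6 of the 10 genes were lower and none higher, against 3.51% of all 13633 genes called lower and 6.81% in either direction, with a median log2 fold change before shrinkage of −0.51 against 0.03 over all genes. Slc40a1 was lower by 64.8% (−1.47 ± 0.20, adjusted p = 1.75e-12, edgeR 0.000927) and again the only one past a log2 fold change of 1 in size, as were 1.08% of all genes on the lower side. Libraries did not overlap for 5 of the 10 genes (Slc40a1, Slc48a1, Fth1, Trf and Blvrb), against 9.7% of genes kept.

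Among the remaining calls Fth1 was 31.8% lower (−0.54 ± 0.07, edgeR adjusted p = 0.000374), Blvrb 37.3% (−0.64 ± 0.12, edgeR 0.00422) and Trf 30.2% (−0.49 ± 0.09, edgeR 0.00477). These 4 genes kept their calls without tdT− F2 and with edgeR. Slc48a1, with 2194, 1744, 1874 and 2171 normalised counts in tdT− libraries, lay just inside the threshold (−0.44 ± 0.17, adjusted p = 0.0488) and lost the call with edgeR (0.0924) and without tdT− F2 (0.117). Ftl1 did the same (−0.26 ± 0.09, adjusted p = 0.0492, edgeR 0.117, 0.105 without tdT− F2), and its libraries of 100250, 82856, 105490 and 104404 overlapped those of vehicle tdT+ cells, whose lowest held 104623.

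A wider list of 86 iron and heme genes, of which 69 passed the filter on low counts, put these values beside the rest of the pathway. Between tdT− and tdT+ cells of BLZ945 mice 5 of the 69 were lower and none higher (edgeR called 1), with a median log2 fold change before shrinkage of −0.05. The share called was near the 6.54% of all genes called in either direction, while 3.61% of all genes were called lower. The calls were 1 of 10 genes of heme uptake, export and breakdown, 2 of 7 of iron uptake and export and 2 of 9 of iron storage and sensing. In this comparison none of 12 genes of heme synthesis, 16 of mitochondrial iron and iron-sulphur clusters and 15 of the Nrf2 pathway was called, with 0, 3 and 2 of them at an unadjusted p under 0.05 and none called by edgeR. Between the 2 tdT+ groups none of the 69 was called by DESeq2 or edgeR, with 4 at an unadjusted p under 0.05 and a median of −0.02. Against vehicle, tdT− cells had 4 genes lower and 2 higher (edgeR called 2), with a median of −0.13, beside 3.51% of all genes called lower and 6.81% in either direction.

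Cp encodes ceruloplasmin, the ferroxidase that works beside ferroportin, and was the wider gene with the smallest p (chr3:20011218-20063309). Vehicle tdT+ libraries held 10644, 11935, 12739.6 and 11898 normalised counts and BLZ945 tdT+ libraries 9509, 11458, 12540.0 and 10486. The tdT− libraries held 7082, 5469, 4305 and 3778 and lay below all others. The difference from BLZ945 tdT+ cells was −1.04 ± 0.17 (adjusted p = 2.13e-08, edgeR 0.00294, 1.67e-07 without tdT− F2, 53.1% lower), and that from vehicle −1.15 ± 0.17 (adjusted p = 4.32e-10, edgeR 0.00135, 5.55e-09 without tdT− F2). Hps3 on the opposite strand shares 108 exon bases with Cp, so reads there cannot be separated by strand. Its counts were 26.4% of those of Cp over the 12 libraries and reached 84.8% in a library. The exporter and the ferroxidase were both lower in tdT− than in tdT+ cells in 4 of 4 mice.

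Genes of iron sensing and of ferritin turnover were called at lower certainty. Ncoa4, the receptor that takes ferritin to the lysosome, was lower in tdT− than in tdT+ cells of BLZ945 mice (−0.43 ± 0.15, adjusted p = 0.0216, edgeR 0.0769, 0.0446 without tdT− F2). Against vehicle cells it was also lower (−0.41 ± 0.15, adjusted p = 0.0329, edgeR 0.0818), but this call was lost without tdT− F2 (0.0587). Ireb2, an iron regulatory protein that binds the hairpins shown above, held 797, 595, 687 and 843 normalised counts in BLZ945 tdT+ and 226, 407, 214 and 403 in tdT− libraries (−0.94 ± 0.45, adjusted p = 0.0349, edgeR 0.109, 0.0226 without tdT− F2). The call of Ireb2 was lost when any of 8 of the 12 libraries was left out (adjusted p up to 0.131). Aco1, the other iron regulatory protein, did not pass in any comparison (adjusted p = 0.814 between tdT− and tdT+ cells of BLZ945 mice). Fbxl5, the iron-sensing subunit that marks Ireb2 protein for degradation, was lower in tdT− than in vehicle cells (−0.67 ± 0.23, adjusted p = 0.0107, edgeR 0.0472, 0.0196 without tdT− F2). Between tdT− and tdT+ cells of BLZ945 mice it did not pass (−0.40 ± 0.22, adjusted p = 0.163), and the groups overlapped. Bst1 on the opposite strand shares 98 exon bases with Fbxl5, and its counts reached 19.5% of those of Fbxl5 in a library.

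Hfe, which binds the transferrin receptor, was lower in tdT− cells of BLZ945 mice (−0.40 ± 0.12, adjusted p = 0.00607, edgeR 0.0573, 0.00763 without tdT− F2). So was the heme exporter Flvcr1 (−0.81 ± 0.38, adjusted p = 0.0409, edgeR 0.113), whose call was lost without tdT− F2 (0.0711). Flvcr1 averaged 415 normalised counts in vehicle tdT+, 767 in BLZ945 tdT+ and 371 in tdT− libraries. BLZ945 tdT+ libraries, between 700.4 and 851, did not overlap vehicle libraries, between 298 and 622, without passing the test (adjusted p = 0.303), and tdT− cells did not pass against vehicle (adjusted p = 0.938). Higher than in vehicle cells were Slc46a1, a carrier of folate and heme (1.03 ± 0.38, adjusted p = 0.0114, edgeR 0.0848, 0.00798 without tdT− F2), and Lrp1, a receptor for heme-hemopexin among many ligands (0.47 ± 0.17, adjusted p = 0.0262, edgeR 0.114). Slc46a1 held 1240.3, 1474, 3998 and 1344 normalised counts in tdT− libraries, and without tdT− M1 the difference was 0.54 and missed the threshold (adjusted p = 0.0526). Lrp1 lost its call without tdT− F2 (0.0783). Its BLZ945 tdT+ libraries also lay above vehicle without overlap (0.56 before shrinkage, against 0.54 for tdT− cells). That difference did not pass in the fit of 12 libraries with the filter on low counts (adjusted p = 0.0753, edgeR 0.365). Of 18 alternatives, 13 did not pass either and 5 passed (adjusted p between 0.0169 and 0.0394). Between tdT− and tdT+ cells of BLZ945 mice Lrp1 did not pass (−0.01 ± 0.15, adjusted p = 0.993).

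The regulators of Hmox1 transcription and the constitutive heme oxygenase did not pass in any of the 3 comparisons with all libraries. Nfe2l2 (Nrf2), which activates Hmox1 and ferritin genes, had means of 8075, 8739 and 9537 normalised counts in vehicle tdT+, BLZ945 tdT+ and tdT− libraries. Without tdT− F2 it passed as higher in tdT− cells than in vehicle cells (0.28, adjusted p = 0.0495), and with that library the adjusted p was 0.191. Bach1, the heme-sensing repressor of the same genes, was low and uneven in tdT− cells, with 571, 526, 142 and 82.2 normalised counts. Hmox2, whose exons overlap those of Cdip1 on the other strand over 892 bases, had means of 4081, 3819 and 3689. Cdip1 counts reached 55.1% of those of Hmox2 in a library. The Nrf2 target Nqo1 was named after its values were seen, because it was the sixth wider gene called against vehicle (adjusted p = 0.0457). It lost the call with edgeR (0.173) and without tdT− F2 (0.0582). It had 0 counts in all 4 tdT− libraries, but also in vehicle F1 and in BLZ945 tdT+ F2 and M2, and at most 112 counts elsewhere.

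**Figure D4:**
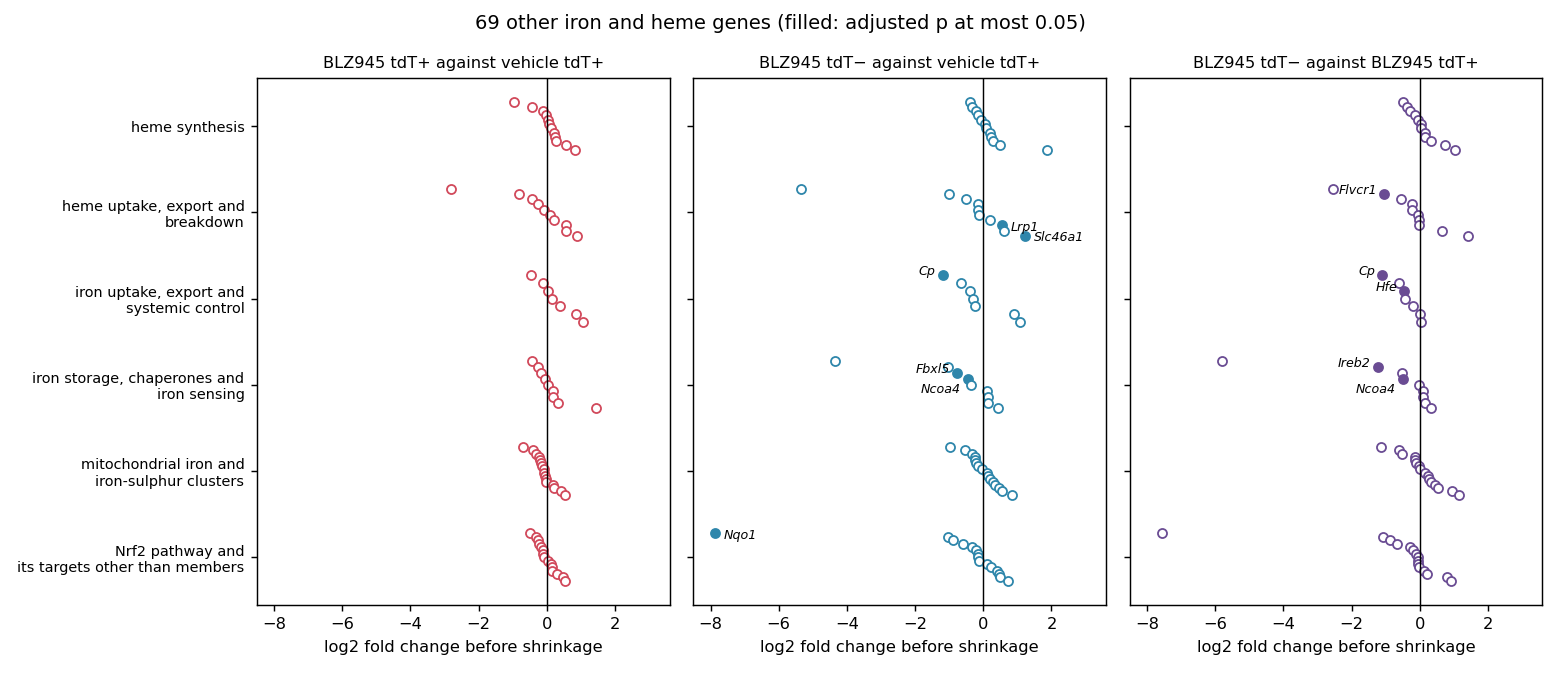
Log2 fold change before shrinkage (horizontal axis) of the 69 other iron and heme genes that passed the filter, grouped by function (vertical axis), 1 panel per comparison. Filled points with names passed an adjusted p of 0.05. No gene is filled between the 2 tdT+ groups, 5 are filled between tdT− and tdT+ cells of BLZ945 mice and 6 against vehicle.

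The genes most like each called gene of the first comparison were taken by Pearson's r of variance-stabilised counts over the 12 libraries, among 9264 other genes averaging 100 normalised counts or more. The points are 3 groups of 4 libraries, so r describes the differences between groups as well as those between libraries. Slc40a1 was closest to Efemp2 (r = 0.962), Slc15a2 (0.962) and Lipa (0.952). Efemp2 averaged 1372, 946 and 276 normalised counts in vehicle tdT+, BLZ945 tdT+ and tdT− libraries, and Slc15a2 2852, 2492 and 343. Trf was closest to Gas6 (0.972), P2rx7 (0.964) and Hgsnat (0.959), and Blvrb to Smagp (0.983), Cbr2 (0.977) and Igfbp4 (0.964), each of them lowest in tdT− cells in the mean. Among the 10 genes, Trf and Blvrb had the highest r (0.889 over 12 libraries, 0.626 after removal of the group means), and for Slc40a1 and Blvrb r fell from 0.839 to −0.24 once group means were removed.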

How the data were processed

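The deposited values are raw counts of reads per gene symbol for 12 libraries, not normalised. Per the file headers, the authors counted exon reads with featureCounts 2.0.6 on a GENCODE M33 (GRCm39) annotation without strand and without multi-mapping reads. Reads over exons of overlapping genes can therefore not be split by strand, and near-identical copies lose reads. The deposited gene lengths (merged exons) served for TPM only. SMART-Seq libraries are amplified by PCR without molecular identifiers, so counting error understates the real error. All count columns had a library (0 left over), and 1 vehicle column with the library number of M2 but the label M1 was assigned by number.

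Genes below 10 counts in 75% or more of the 12 libraries were removed (13724 of 56735 kept). Groups were compared with DESeq2 1.42.0 in R 4.3.3 (two-sided Wald test, group as the only term, all 12 libraries), with log2 fold changes shrunken by apeglm 1.24.0, Benjamini-Hochberg adjustment over all genes and a threshold of 0.05. Values written ± after a fold change are its SE, and intervals are 95% intervals of the unshrunken fit. The code was tested on simulated data. Alternatives were edgeR 4.0.16 (quasi-likelihood, TMM), TMM inside DESeq2, no filter, a replicate block, the letter F or M as covariate, 8 libraries only, and each library left out. Nothing in the sources says that libraries of a group are other than single mice. BLZ945 tdT+ and tdT− libraries are paired by mouse label, and the correlation of their deviations from the group means lay between 0.0194 and 0.0643. No pair of replicates was near sampling noise (chi-square per degree of freedom at least 45.6).

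The members and all gene lists were chosen with earlier results of these data known. Named are all 10 genes, called wider genes averaging 100 normalised counts or more (at most 6 per comparison), and Hmox2, Bach1, Nfe2l2, Ncoa4, Aco1 and Ireb2. Marker lists of the neighbouring cell types were summed per library. Those of choroid plexus epithelium (at most 3842 normalised counts) are given beside Trf only. Those of endothelium (at most 165) and B and T cells (at most 336) are not discussed further.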

Additional observations from a re-analysis of the deposited data

Results flagged for a closer look

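Among 66 sets of 4 libraries (22 genes in 3 groups), 3 had a value far from the rest, where chance alone flags about 1 in 20, or 3.3. Trf in BLZ945 tdT− F2 (70671 normalised counts, next 91528) lay apart by 0.888 of the range of its group, Blvra in BLZ945 tdT+ F2 (2758, next 3437) by 0.882 and Slc46a1 in BLZ945 tdT− M1 (3998, next 1474) by 0.915. The tdT− minus tdT+ difference had opposite signs in mice labelled F and M for 2 of the 22 genes. For Bach1 the mean log2 difference was 0.58 in F and −1.83 in M (2.41 apart), and for Lrp1 0.29 and −0.31 (0.60 apart), with 2 mice per letter, and neither difference was tested.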

How the results depend on the processing

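Slc40a1, Trf, Blvrb and Cp in both comparisons of tdT− cells and Fth1 in both comparisons with vehicle kept their direction and their call under all 18 alternatives. Over 1188 recomputed fold changes, 1083 kept direction and side of the threshold, 77 lost the call, 10 gained it and 18 changed sign. All 18 were uncalled values with 1 library left out, and the cause was not tested. Values are given in the order tdT− against tdT+ of BLZ945 mice, BLZ945 tdT+ against vehicle, and tdT− against vehicle.

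With a log2 fold change of 1 in size required, 1, 0 and 1 of the 10 genes, 1, 0 and 2 of the wider list and 309, 23 and 350 of all genes remained, by construction fewer. edgeR called 3, 1 and 4 of the 10, 1, 0 and 2 of the wider list and 377, 9 and 446 of all genes. With no filter on low counts 256 genes and 1 of the wider list were called between the tdT+ groups, and with only their 8 libraries 325 and 1. The paired fit (replicate block) of the same mice called 3 of the 10, 5 wider genes and 989 of all genes. In the fits with vehicle the label pairs no animals, and the replicate block called 2 of the 10, 1 wider gene and 389 of all genes between the tdT+ groups, and 6, 3 and 1015 for tdT− against vehicle. Vehicle and BLZ945 libraries of a label shared only the label (correlation of deviations between −0.020 and 0.028).

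With 1 library left out, 3 to 4, 1 to 2 and 4 to 6 of the 10 genes were called, 3 to 8, 0 to 1 and 2 to 7 of the wider list, and 677 to 1020, 104 to 214 and 756 to 1097 of all genes. Without tdT− F2, 8 and 7 wider genes and 214 of all genes (between the tdT+ groups) were called. The lowest wider counts were 3 for tdT− against tdT+ (without BLZ945 tdT+ F1, F2 or M2 or tdT− M1) and 2 against vehicle (without vehicle M2; 3 without vehicle F2 or M1 or tdT− F1), and 1 wider gene was called between the tdT+ groups without BLZ945 tdT+ F2 or tdT− M1. Calls lost when 1 of the 12 libraries was left out, with the adjusted p that then resulted, were Flvcr1 (9 libraries, 0.0509 to 0.135), Ireb2 (8, 0.0506 to 0.131) and Ncoa4 (BLZ945 tdT+ F2 or M2 or tdT− F1, 0.0572 to 0.121) for tdT− against tdT+ and Ftl1 (7, 0.0514 to 0.221) between the tdT+ groups. Against vehicle they were Slc48a1 (9, 0.0506 to 0.190), Ftl1 (9, 0.0505 to 0.203), Ncoa4 (6, 0.0504 to 0.162), Lrp1 (5, 0.0609 to 0.116), Slc46a1 (vehicle M1 or M2 or tdT− M1, 0.0525 to 0.0549) and Fbxl5 (vehicle M2, 0.0691). The log2 fold changes that changed sign ranged from −0.0690 to 0.128 (Slc11a1), −0.164 to 0.0261 (Bach1), −0.108 to 0.00619 (Hmox2) and −0.0822 to 0.0823 (Lrp1) for tdT− against tdT+. Between the tdT+ groups they ranged from −0.00326 to 0.0464 (Hmox1), −0.00623 to 0.0464 (Slc11a1), −0.00803 to 0.0274 (Ireb2) and −0.0154 to 0.0785 (Ncoa4). Against vehicle they ranged from −0.0338 to 0.162 (Slc11a1), −0.0445 to 0.221 (Aco1) and −0.257 to 0.0447 (Flvcr1).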
